A study of Mus musculus with 27 samples.

Results

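ProT cells, a mouse cell line, carry a form of TAL1 that is switched on with 4-hydroxytamoxifen through CreER, a Cre recombinase that tamoxifen activates, and LoxP sites. The comparison described here sets 3 libraries taken 18 h after 4-hydroxytamoxifen against 3 taken at 12 h, 6 libraries of the 27 in the series. The libraries were chosen by their labelled time, and every gene was considered. Both groups carried the same alleles and both received the drug, and their labels differed in time alone. The labels do not say whether harvest, handling and library preparation were the same at both times. No library without tamoxifen at 12 h or 18 h was used, so time since the drug and time in culture cannot be told apart. The 9 other ProT libraries, 3 each at 0 h, 6 h and 24 h, gave a shared estimate of the spread and the course over time. Whether the 3 libraries of a group were grown as separate cultures is not stated in the labels, and the p-values therefore cover no more than the library-to-library spread, which may be technical.

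TAL1 is a basic helix-loop-helix transcription factor that pairs with E proteins such as E2A and HEB and binds E-box sequences, often beside GATA and RUNX factors. Normal T cell precursors shut it off, and its return is a frequent event in T cell acute lymphoblastic leukaemia. Immediate early genes, the list with the most called members here, are transcribed soon after a signal through a growth factor, cytokine or antigen receptor without new protein synthesis. They encode transcription factors of the EGR and AP-1 (FOS and JUN) families, and also proteins that end the signal, such as phosphatases of MAP kinases and RNA-binding proteins that destabilise short-lived messages.

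The upstream sequences of 3 of the genes that were higher at 18 h than at 12 h are shown first. Their windows hold short motifs, some of them sites bound by families named above. Whether these genes are regulated together was not tested, and their courses over the other times differed. Each is the 250 bases before the RefSeq start on GRCm38.p6, on the gene's own strand, 5′ to 3′. Capitals mark GCGGGGGCG, a form of the site bound by EGR proteins, TGACG, the core of the site bound by CREB and ATF proteins, CACGTG, an E-box, and CAGNTG, the E-box class that TAL1 with E proteins is known to bind.
Junb, chr8:84978749-84978998, minus strand: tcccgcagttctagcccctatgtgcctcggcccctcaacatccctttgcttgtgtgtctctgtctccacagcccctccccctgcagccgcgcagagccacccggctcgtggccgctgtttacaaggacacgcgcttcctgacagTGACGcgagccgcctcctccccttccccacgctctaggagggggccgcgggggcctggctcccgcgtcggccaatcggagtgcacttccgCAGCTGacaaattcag
Dusp2, chr2:127335909-127336158, plus strand: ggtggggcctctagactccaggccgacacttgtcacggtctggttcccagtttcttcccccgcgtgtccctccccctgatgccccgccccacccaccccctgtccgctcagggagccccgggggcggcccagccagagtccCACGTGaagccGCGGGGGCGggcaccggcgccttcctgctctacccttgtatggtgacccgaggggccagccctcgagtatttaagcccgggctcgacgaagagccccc
Crebrf, chr17:26715400-26715649, plus strand: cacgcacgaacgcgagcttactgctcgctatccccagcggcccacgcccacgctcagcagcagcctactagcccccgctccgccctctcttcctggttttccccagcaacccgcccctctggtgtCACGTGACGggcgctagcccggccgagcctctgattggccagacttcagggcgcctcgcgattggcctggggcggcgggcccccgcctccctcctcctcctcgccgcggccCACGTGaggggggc

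Among 32851 promoter windows of this length in the RefSeq table, searched on both strands, GCGGGGGCG was in 2.57%, TGACG in 17.8%, CACGTG in 6.02% and CAGNTG in 44.8%. The wider E-box CANNTG, which contains the matches of CACGTG and CAGNTG, was in 66.2%, and GATA in 53.6%. GCGGGGGCG was in the windows of Dusp2 and Zfp36. CACGTG was in those of Dusp2 and Crebrf, TGACG in those of Junb, Crebrf and Cirbp, and CAGNTG in those of Junb, Zfp36 and Cirbp. GATA was in those of Zfp36, Crebrf and Cirbp, and CANNTG in those of Junb, Dusp2, Crebrf, Zfp36 and Cirbp. For Cirbp, which had 2 windows, each of these motifs was in 1 window only. A CArG box, the site of serum response factor, was in 1.47% of all windows and in that of Zfp36. The table held 6 windows for 5 of the 7 genes that passed the test, with 2 for Cirbp; those of Zfp36 and Cirbp are not printed because they meet annotated transcribed sequence or a second start. These matches describe letters only. GCGGGGGCG, TGACG and the CArG box were chosen after the results were seen.

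The 12 h libraries held 4649416 to 6599146 counts in genes and the 18 h libraries 4037467 to 5779420. Reads in no annotated feature came to 18.8% to 19.4% at 12 h and 17.3% to 19.7% at 18 h, and mitochondrial genes took 10.2% to 12.8% and 10.6% to 11.8% of counts. Before any comparison, 12 h library 1 stood apart from the other 2 libraries of its time by 1 measure: the chi-square of counts over genes, divided by its degrees of freedom, was 18.1 and 16.8 for its 2 pairs, 6.76 for the remaining 12 h pair and 2.30 to 4.66 for the 18 h pairs. No pair was close to 1, the value for counting error only, so no library was taken for a repeat deposit, and values without 12 h library 1 are given where they differ.

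Tal1 itself did not pass the test. Its level was 2259, 2227 and 1779 CPM (counts scaled to library size) in the 12 h libraries and 2149, 2233 and 2358 CPM at 18 h. The groups overlapped. The log2 fold change, 18 h minus 12 h, was 0.11 ± 0.12 (SE, n = 3 per group, adjusted p = 0.988), with a 95% interval from -0.14 to 0.36. At 0 h and 6 h Tal1 was at 2895 to 3608 CPM and at 24 h at 1963 to 2068 CPM, so every library from 12 h on lay below every library at 0 h and 6 h, also with total library size as the scale. The levels of Tal1 thus were lower from 12 h on than at 0 h, although the labels describe its expression as induced. At 6 h Tal1 was at 3033 to 3608 CPM and at 0 h at 2895 to 3098 CPM, and these ranges overlapped. Which Tal1 messages the counts hold was not given in the sources used here.

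Between 12 h and 18 h, 7 of 13610 genes tested rose and none fell at an adjusted p under 0.05 (edgeR quasi-likelihood test; 0.0514% of genes tested, higher). They were Egr1, Zfp36, Junb, Ier2, Dusp2, Cirbp and Crebrf, and in each all 3 libraries at 18 h lay above all 3 at 12 h, an order that 5.23% of all genes tested showed in that direction and 5.54% in the other. Of these, 5 are immediate early genes of the list used here. At an unadjusted p under 0.05 there were 381 genes higher (2.8%) and 389 lower (2.86%), and the smallest adjusted p of any lower gene was 0.098. DESeq2 called 7 genes, all higher. The median log2 fold change of all genes was -0.00, and for 11318 genes (83.2%) the 95% interval lay within 1 log2 unit of 0 on either side. Leaving out 12 h library 1 raised the count to 14, all higher, with Crebrf lost and histone genes among those gained.

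**Figure D1:**
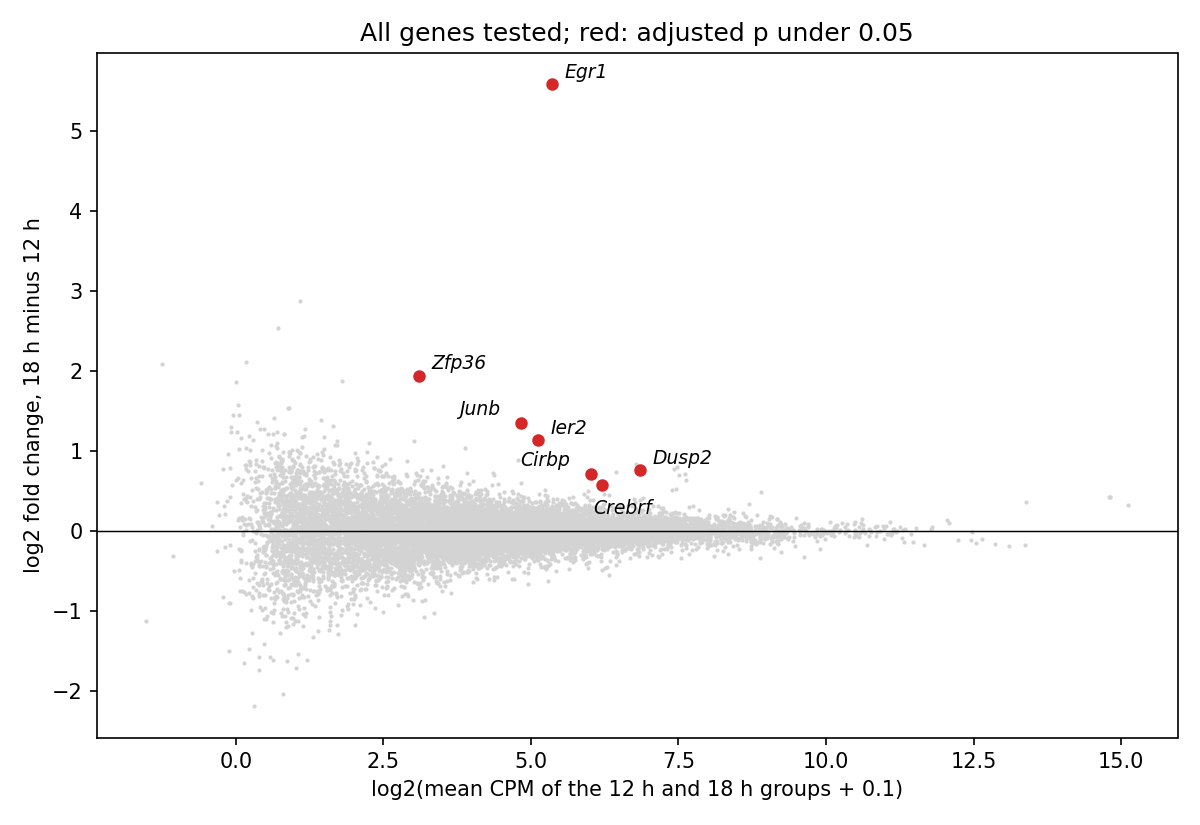
Each point is 1 of 13610 genes tested: the horizontal axis is the log2 of the mean CPM of the 12 h and 18 h groups plus 0.1, the vertical axis the log2 fold change, 18 h minus 12 h, and red marks an adjusted p under 0.05. The 7 red genes all lie above 0, from 0.58 for Crebrf to 5.59 for Egr1, which stands apart from every other gene.

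Egr1 encodes a zinc finger transcription factor that is a classic first responder to ERK signalling and, in thymocytes, to receptor signals. Its level was 2.32, 1.22 and 1.23 CPM at 12 h (16, 8 and 6 counts) and 58.2, 85.1 and 96.2 CPM at 18 h (276, 345 and 553 counts). The ratio of group means was 50.1, and the log2 fold change was 5.59 ± 0.29 (adjusted p = 8.28e-14). No other gene tested changed by as much. Egr1 was also lower at 12 h than before. It was 3.35, 7.65 and 3.89 CPM at 0 h and 7.52, 3.60 and 4.90 CPM at 6 h. From 6 h to 12 h it fell by 1.75 ± 0.39 on the log2 scale (adjusted p = 0.00396). That step uses the same 12 h libraries in which Egr1 was found low, which favours a fall, and its value is a description. At 24 h Egr1 was at 15.8, 22.6 and 14.6 CPM, below all 18 h libraries and above every library at 0 h, 6 h and 12 h.

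Junb encodes a subunit of AP-1. Its level was 19.3, 11.9 and 17.01 CPM at 12 h and 34.8, 48.6 and 39.6 CPM at 18 h, a log2 fold change of 1.35 ± 0.18 (adjusted p = 0.000271). The 0 h, 6 h and 24 h libraries, at 11.1 to 21.9 CPM, lay in or near the range of the 12 h libraries. Junb lies at chr8:84974484-84978718 (GRCm38, GENCODE M21) and overlaps Prdx2, a peroxiredoxin gene, on the other strand. Prdx2 had a log2 fold change of -0.05 ± 0.11.

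Ier2, a nuclear immediate early protein, was at 19.6, 22.5 and 22.9 CPM at 12 h and 42.4, 49.6 and 50.8 CPM at 18 h, so the highest 12 h library was well under the lowest at 18 h. The log2 fold change was 1.14 ± 0.16 (adjusted p = 0.000271). At 24 h Ier2 was still at 28.0 to 40.5 CPM, above all 12 h libraries and below all 18 h libraries. Ier2 lies at chr8:84661331-84662852.

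The other called members of the list encode brakes on such signals. Zfp36, at chr7:28376784-28380253, encodes tristetraprolin, which binds AU-rich elements and promotes decay of cytokine and immediate early messages. It was at 3.05, 3.37 and 4.10 CPM at 12 h and 11.2, 16.3 and 12.9 CPM at 18 h, a log2 fold change of 1.94 ± 0.25 (adjusted p = 0.000154). All 12 h libraries lay below every library at 0 h and 6 h (5.17 to 8.29 CPM), and the 24 h libraries, at 4.67 to 5.21 CPM, lay just above them. The annotation places Gm44710 over Zfp36 on the other strand. Dusp2, at chr2:127336159-127338376, encodes a nuclear phosphatase of MAP kinases. It was at 76.1, 84.1 and 97.3 CPM at 12 h and 141, 144 and 150 CPM at 18 h, with the 18 h libraries close together, and its log2 fold change was 0.76 ± 0.11 (adjusted p = 0.000271).

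Cirbp and Crebrf are not in the immediate early list. Cirbp, at chr10:80165985-80172786, encodes a cold-inducible RNA-binding protein that is also known to follow the circadian rhythm of body temperature. It was at 47.5, 51.9 and 48.4 CPM at 12 h and 87.4, 81.1 and 73.7 CPM at 18 h (log2 fold change 0.71 ± 0.11, adjusted p = 0.00166). With total library size in place of TMM scaling its adjusted p was 0.0748. Crebrf, at chr17:26715650-26776635, encodes a regulator of the stress-linked factor CREB3. It was at 59.4, 51.6 and 65.6 CPM at 12 h and 85.8, 94.9 and 82.1 CPM at 18 h (log2 fold change 0.58 ± 0.11, adjusted p = 0.0362). This was the smallest of the 7 changes and the least settled: the adjusted p was 0.0534 or 0.427 without 12 h library 1 or 2, 0.158, 0.399 or 0.0737 without 18 h library 1, 2 or 3, 0.264 with total library size, and 0.0978 with the 6 libraries alone. Crebrf at 18 h was back at its level of 0 h and 6 h (78.2 to 93.3 CPM), while the 12 h and 24 h libraries lay lower.

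**Figure D2:**
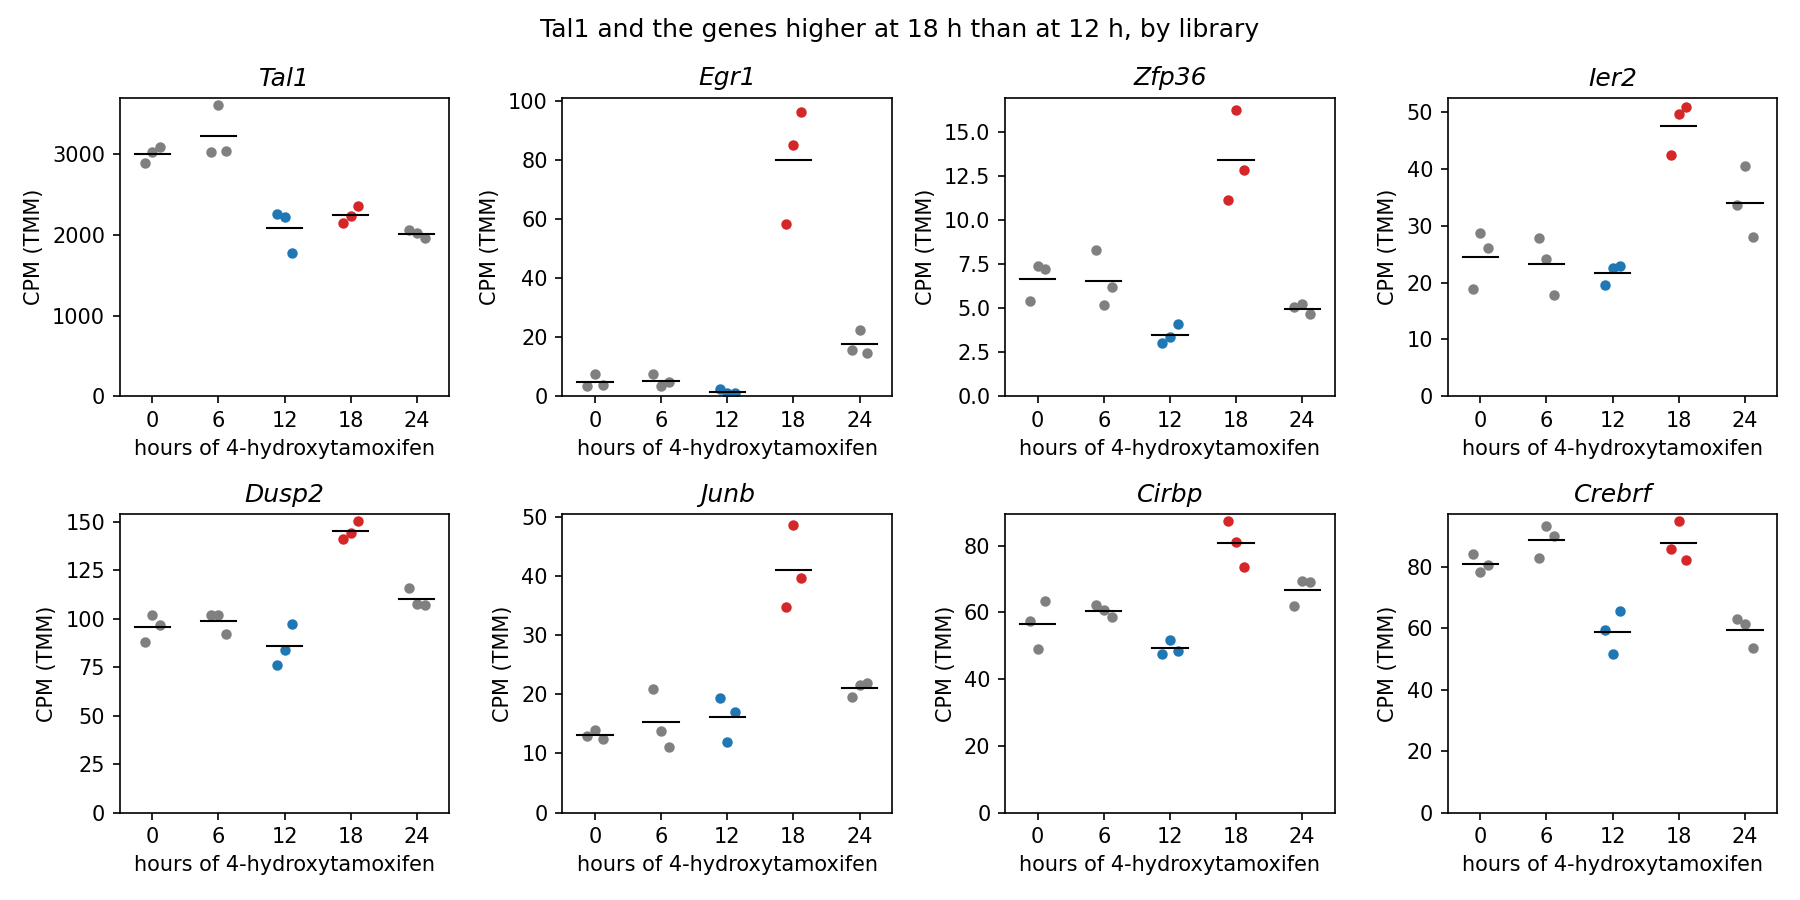
Each panel plots CPM (linear axis from 0) against hours of 4-hydroxytamoxifen for Tal1 and for 1 of the 7 genes higher at 18 h; points are libraries, 12 h in blue and 18 h in red, and bars are means of 3. In all 7 genes the red points lie above the blue ones without overlap, and the 24 h points lie lower than the red ones, while the Tal1 points at 12 h and 18 h overlap.

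The genes with a symbol just outside the threshold on the higher side were, by their p, Gp49a, Mtss1, B3galt5, Klhl24, Fos, Hist1h1e and Ccl4. Mtss1, a membrane-bending scaffold of the actin cortex, and B3galt5, a galactosyltransferase, had log2 fold changes of 0.70 ± 0.15 and 1.12 ± 0.24 (adjusted p = 0.098 for each), and Klhl24, a substrate adaptor of ubiquitin ligases, had 0.50 ± 0.11 (adjusted p = 0.116). Fos, the partner of JUN proteins in AP-1, had 3, 3 and 2 counts at 12 h and 10, 11 and 18 at 18 h, for a log2 fold change of 2.54 ± 0.57 (adjusted p = 0.116). Gp49a, a receptor gene with the near-identical copy Lilrb4, so that its counts are uncertain, was at 6.39, 11.3 and 11.3 CPM and 19.6, 21.7 and 17.6 CPM (log2 fold change 1.03 ± 0.21, adjusted p = 0.0544). Ccl4, a chemokine gene that activated lymphocytes transcribe, had 6, 13 and 7 counts at 12 h and 23, 24 and 30 at 18 h (adjusted p = 0.162). None of these passed the test, and in each the libraries of the 2 times did not overlap.

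The immediate early list held 26 genes, of which 20 had enough counts to test. Of these, 5 rose and none fell, against 0.0514% of all genes called higher, and 10 were higher and none lower at an unadjusted p under 0.05 (2.8% of all genes higher). The median log2 fold change was 0.46, beside -0.00 for all genes tested, and it ranged from 0.32 to 0.46 when 1 of the 6 libraries was left out. The summed level of the tested members was 509, 453 and 479 CPM at 12 h and 694, 795 and 753 CPM at 18 h, and returned to 542 to 580 CPM at 24 h. The 15 members that did not pass spanned -0.54 ± 0.33 for Klf4 to the value given for Fos. Among them Jun was at 7.69, 3.82 and 3.89 CPM at 12 h and 9.90, 9.62 and 9.39 CPM at 18 h, and Myc was at 32.7, 29.4 and 38.1 CPM and 39.2, 31.3 and 32.5 CPM. Jun, Myc and Klf4 were chosen after their values were seen. The log2 fold change of Myc was 0.05 ± 0.16 and its groups overlapped.

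Fosb, Fosl1, Egr2, Egr3, Nr4a3 and Atf3 had too few counts to test, at most 4 in any of the 6 libraries. Egr2, the EGR family member tied to antigen receptor strength, had 0, 1 and 1 counts at 12 h and 2, 3 and 4 at 18 h, and Egr3 had none in any. For a library of these depths a count of 0 allows up to 0.436 to 0.740 CPM (3 counts, counting error only).

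**Figure D3:**
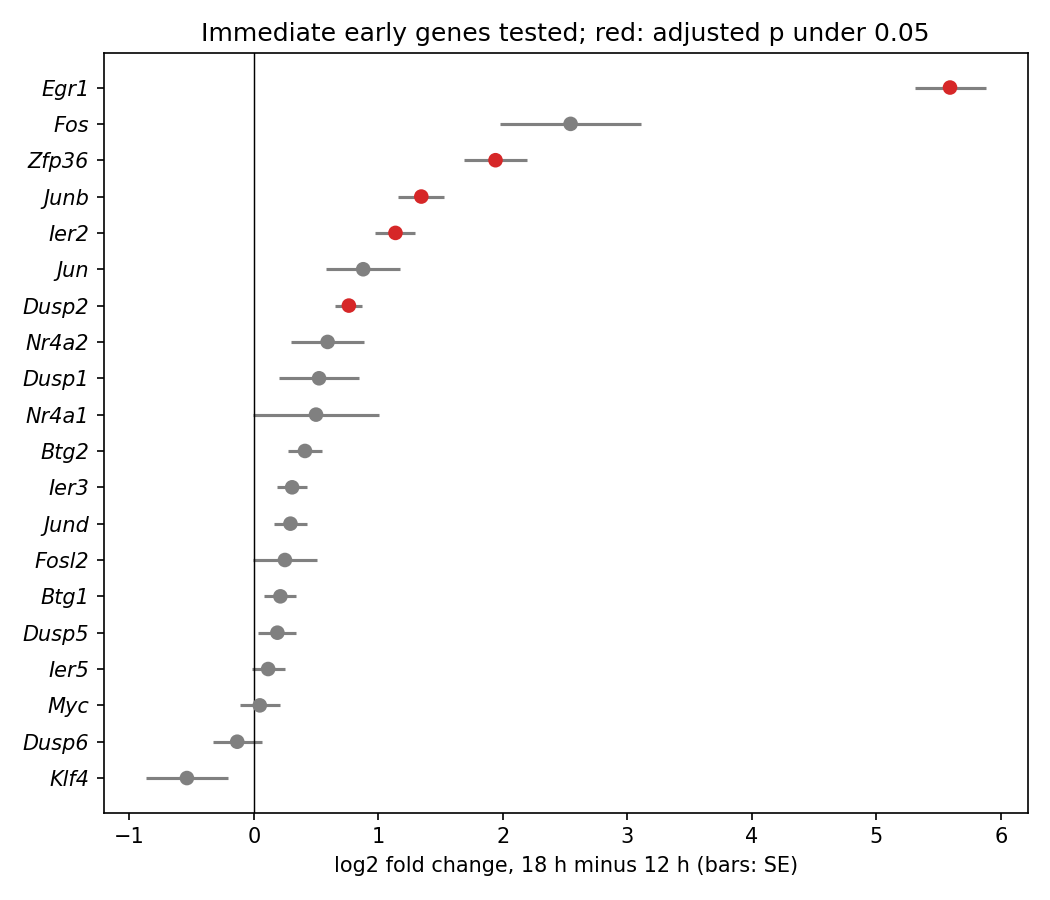
Log2 fold change, 18 h minus 12 h, of the 20 immediate early genes tested, with bars of 1 SE; red marks an adjusted p under 0.05. The 5 red genes run from 0.76 for Dusp2 to 5.59 for Egr1, 18 of the 20 lie above 0, and Dusp6 and Klf4 lie below it.

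Whether 18 h lay on a path from 12 h to 24 h or stood apart from both was asked by setting it against the mean of the 2 neighbouring times. In that contrast 13 genes were higher and 1 lower at 18 h (14 genes, 0.103% of those tested). The higher genes were the 7 named above with Gp49a, Nab2, Klhl24, Fos, Pde4b and Tiparp; the lower one was Plk1. The 12 h and 18 h libraries are part of both contrasts, so the 7 genes are not independent evidence here. The step from 18 h to 24 h uses the same 18 h libraries in which these genes were found high, which favours a fall, and its values are a description. From 18 h to 24 h the log2 change was -2.17 ± 0.20 for Egr1 (adjusted p = 3.07e-07), -1.41 ± 0.24 for Zfp36 (adjusted p = 0.00593), -0.96 ± 0.18 for Junb (adjusted p = 0.0117) and -0.56 ± 0.11 for Crebrf (adjusted p = 0.0198). For Ier2, Dusp2 and Cirbp it was -0.48 ± 0.15, -0.40 ± 0.11 and -0.27 ± 0.11, and did not pass.

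Among the genes the contrast adds, Nab2 encodes a corepressor that binds EGR1 and is itself an EGR1 target. Nab2 was at 9.73, 6.43 and 8.40 CPM at 12 h, 15.8, 12.6 and 14.6 CPM at 18 h and 6.90, 4.90 and 5.52 CPM at 24 h. Among 12 h, 18 h and 24 h, the 18 h libraries were highest, and the contrast was 1.06 ± 0.18 (adjusted p = 0.00546). Mean levels of Nab2 at 0 h and 6 h were 11.9 and 14.2 CPM, beside 14.3 CPM at 18 h. The libraries of 0 h and of 6 h overlapped those of 18 h. Whether the level of Nab2 follows that of Egr1 was not tested. Fos, at 4, 3 and 1 counts at 24 h, passed here with 2.52 ± 0.47 (adjusted p = 0.0127). Pde4b, a phosphodiesterase that degrades cyclic AMP, and Tiparp, a target of the aryl hydrocarbon receptor, had contrasts of 0.52 ± 0.10 and 0.66 ± 0.13. Klhl24 had 0.54 ± 0.09. The contrast leaves out the earlier times. Mean levels at 0 h, 6 h and 18 h were 43.3, 42.0 and 43.9 CPM for Tiparp and 58.8, 69.2 and 73.0 CPM for Klhl24. They were 74.8, 82.7 and 92.6 CPM for Pde4b and 18.4, 16.2 and 19.6 CPM for Gp49a. A level at 18 h above 12 h and 24 h was thus not always far above 0 h or 6 h.

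Plk1, a kinase needed to enter and complete mitosis, was at 60.2, 60.4 and 57.4 CPM at 12 h, 48.9, 43.9 and 43.6 CPM at 18 h and 70.8, 66.7 and 72.8 CPM at 24 h. The 18 h libraries lay below both neighbours, by -0.50 ± 0.10 (adjusted p = 0.032). Other genes on the lower side did not pass, among them Asf1b (-0.45 ± 0.12), Ptch1 (-0.73 ± 0.19) and Tuba4a (-0.41 ± 0.11). This count rests on single libraries more than the first one. It was 26 without 12 h library 3, 6 and 5 without 18 h library 1 or 2, 9 without 24 h library 3, and 8 with total library size. Egr1, Zfp36, Junb and Dusp2 passed in all 14 alternatives run. The call on Plk1 ended in 8 of them (adjusted p up to 0.467), Tiparp in 7 (up to 0.895), Fos, Pde4b and Cirbp in 5 each (up to 0.163, 0.345 and 0.365), and Klhl24 in 3 (up to 0.182). Nab2, Gp49a, Ier2 and Crebrf ended in 2 each (up to 0.110, 0.115, 0.0712 and 0.132).

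Set beside the steps before and after, the interval from 12 h to 18 h held few calls. From 6 h to 12 h, 1477 genes passed (754 higher and 723 lower, 10.9% of those tested), and from 18 h to 24 h, 22 passed (2 higher and 20 lower, 0.162%). These steps share libraries with the comparison, so no overlap with them is given. The contrast of 24 h with 6 h shares none: there 1917 genes passed (927 higher and 990 lower, 14.1%), a count that ran from 827 without 6 h library 2 to 3278 without 6 h library 1, and was 945 without 6 h library 3 and 1152, 1080 and 1187 without 24 h library 1, 2 or 3. In it Egr1 was higher at 24 h by 1.68 ± 0.26 (adjusted p = 0.000118) and Ier2 by 0.54 ± 0.16 (adjusted p = 0.0246), and Crebrf was lower by -0.58 ± 0.11 (adjusted p = 0.000931). Zfp36 (-0.42 ± 0.26), Junb (0.43 ± 0.20), Dusp2 (0.16 ± 0.11) and Cirbp (0.14 ± 0.11) did not pass.

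No gene was called lower at 18 h. The 5 with the smallest p are given as values only. Ppme1, which removes a methyl group from protein phosphatase PP2A, was at 45.3, 44.2 and 53.3 CPM at 12 h and 29.3, 34.3 and 28.9 CPM at 18 h (log2 fold change -0.63 ± 0.14, adjusted p = 0.098). Ccrn4l, which encodes the rhythmically expressed protein nocturnin, was at 11.0, 13.3 and 16.8 CPM and 7.37, 6.90 and 5.74 CPM (-1.03 ± 0.24, adjusted p = 0.162). In both, the libraries of the 2 times did not overlap. Gpaa1, of the enzyme that attaches GPI anchors, Rmi2, of the BLM helicase complex, and Pfkp, the platelet form of phosphofructokinase, had -0.45 ± 0.12, -0.61 ± 0.16 and -0.51 ± 0.14, with adjusted p of 0.392 to 0.43.

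Pfkp belongs to the list of glycolysis and hypoxia genes, the list with the lowest median. None of its 28 members tested passed, and 1 was called lower with no filter on low counts. The log2 fold change was negative in 27 of them, with a median of -0.23 (-0.34 to -0.13 when 1 of the 6 libraries was left out, with -0.13 reached without 18 h library 3), 10 were lower and 1 higher at an unadjusted p under 0.05 (2.86% and 2.8% of all genes), and 11 had all 18 h libraries below all 12 h libraries, an order found in 5.54% of all genes. The summed level was 2614, 2583 and 2801 CPM at 12 h and 2387, 2550 and 1913 CPM at 18 h. The 18 h libraries lay lower, library 3 most of all. Egln3, a prolyl hydroxylase of the hypoxia factor HIF, was at 96.0, 89.2 and 113 CPM at 12 h and 71.6, 80.4 and 68.5 CPM at 18 h (-0.43 ± 0.12, adjusted p = 0.501). In the step from 6 h to 12 h the same list had 22 members called higher and none lower, with a median of 0.80, where 5.54% of all genes were called higher. From 18 h to 24 h it had 4 called lower, with a median of -0.33, where 0.147% of all genes were called lower. These steps share the 12 h or the 18 h libraries with the comparison. The summed level was 1216 to 1641 CPM at 6 h and 1744 to 1763 CPM at 24 h, so the highest sums in the series of times were those of 12 h.

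Genes of mitosis and DNA replication leaned the same way, with none called. The list of D cyclins and inhibitors of cyclin-dependent kinases did not. It had 7 positive and 6 negative of 13 tested, a median of 0.07 and none called, with 2 lower and none higher at an unadjusted p under 0.05. Mitosis genes were negative in 25 of 26 tested, with a median of -0.13 (-0.08 without 12 h library 1), and 7 were lower and none higher at an unadjusted p under 0.05 (2.86% of all genes lower). Plk1, given above, and Aurka, a kinase of the spindle poles, had the smallest p. Aurka was at 25.7, 24.0 and 17.8 CPM at 12 h and 15.6, 13.8 and 17.04 CPM at 18 h (-0.54 ± 0.17, adjusted p = 0.645). DNA replication genes were negative in 26 of 30, with a median of -0.12 (-0.06 without 18 h library 2) and none at an unadjusted p under 0.05; E2f2 and Gins1 had -0.24 ± 0.12 and -0.32 ± 0.18. Summed, the mitosis genes were at 2243 to 2537 CPM at 12 h, 2047 to 2236 CPM at 18 h and 2526 to 2631 CPM at 24 h. They were at 1523 to 1621 CPM at 0 h and 1597 to 1888 CPM at 6 h, below every 18 h library. From 6 h to 12 h, 17 of the mitosis genes were called higher and none lower, where 5.54% of all genes were called higher. That step shares the 12 h libraries with the comparison. In bulk RNA, fewer cells in a phase and less RNA per cell cannot be told apart.

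Clustered histone genes, whose messages are made in S phase and mostly lack poly(A) tails, went the other way. None of 17 tested passed, 15 were positive, and the median was 0.23. Hist1h1e was at 96.5, 43.6 and 55.1 CPM at 12 h and 113, 102 and 110 CPM at 18 h (0.73 ± 0.16, adjusted p = 0.12). Here 12 h library 1 was far above the other 2 of its group, and without it the log2 fold change was 1.14 (adjusted p = 2.47e-06). Hist1h1c had 0.58 ± 0.16. These genes have near-identical copies, and their counts are uncertain.

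Cholesterol and lipid synthesis genes had 21 of 25 tested above 0, a median of 0.17 and none called; 6 were higher and none lower at an unadjusted p under 0.05 (2.8% of all genes higher), and 9 had all 18 h libraries above all 12 h libraries, against 5.23% of all genes. Hmgcs1, an early enzyme of the mevalonate pathway, was at 159, 128 and 128 CPM at 12 h and 211, 201 and 180 CPM at 18 h (0.51 ± 0.12, adjusted p = 0.219). Without 12 h library 1 it passed (adjusted p = 0.0464). Msmo1, a sterol demethylase, had 0.38 ± 0.10 (adjusted p = 0.43). From 6 h to 12 h the cholesterol and lipid list had 12 members called lower and none higher, with a median of -0.47. In that step 723 of 13610 genes tested were called lower, and it shares the 12 h libraries with the comparison. Summed, this list was at 898 to 1019 CPM at 0 h and 1174 to 1489 CPM at 6 h. It was at 959 to 1062 CPM at 12 h and 1135 to 1262 CPM at 18 h. Heat shock genes were negative in 10 of 13 tested with a median of -0.16 and none called; the median was -0.24 without 18 h library 1 and -0.10 without 18 h library 3. Dnajb1 and Hsf1, a co-chaperone and the heat shock transcription factor, had -0.35 ± 0.11 and -0.53 ± 0.18.

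**Figure D4:**
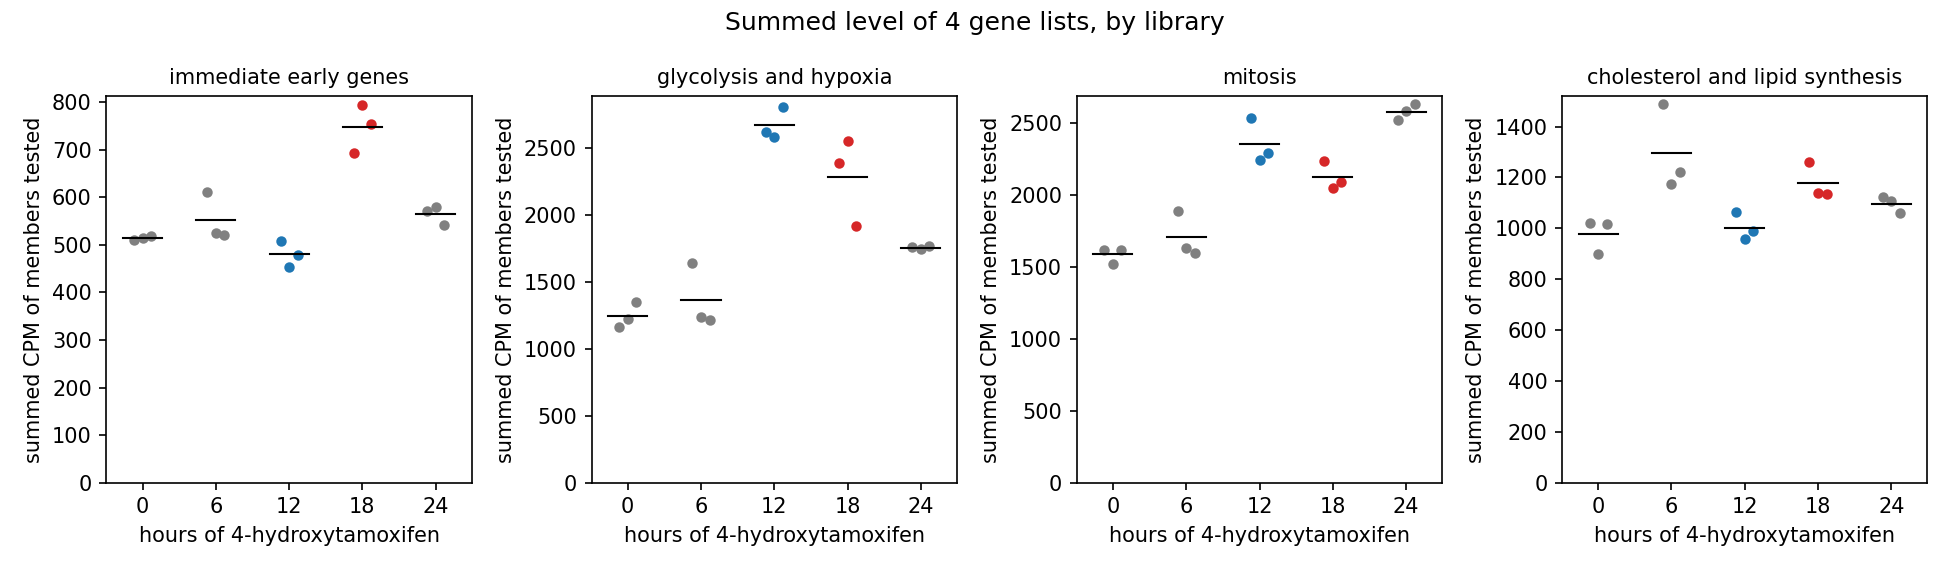
Summed CPM of the tested members of 4 gene lists (linear axes from 0) against hours of 4-hydroxytamoxifen; points are libraries, 12 h in blue and 18 h in red, and bars are means of 3. Immediate early genes are highest at 18 h (694 to 795 CPM) and glycolysis and hypoxia genes at 12 h (2583 to 2801 CPM). Mitosis genes at 18 h lie below 12 h and 24 h and above 0 h and 6 h. Cholesterol genes reach their highest value in a 6 h library.

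The lists closest to TAL1 had no called member between these times. Of the TAL1 complex and its core circuit, 21 genes were tested, none passed, and the median was 0.04 (0.08 without 12 h library 1 and -0.01 without 12 h library 2). Erg, an ETS factor of that circuit, was at 27.7, 25.2 and 28.9 CPM at 12 h and 21.5, 17.5 and 21.2 CPM at 18 h (-0.43 ± 0.16, adjusted p = 0.74), and Lmo2, the bridging partner of TAL1, was at 3.48, 4.44 and 4.92 CPM and 6.53, 4.68 and 8.87 CPM (0.69 ± 0.29, adjusted p = 0.823). TAL1 target genes had 13 tested, none called and a median of 0.03 (-0.05 without 12 h library 2). Rag1, a subunit of the recombinase of antigen receptor genes, was at 10.9, 6.88 and 12.9 CPM and 6.95, 5.18 and 4.52 CPM (-0.87 ± 0.27, adjusted p = 0.605); its groups overlapped. Cd69, an activation marker of lymphocytes, was at 6.97, 7.04 and 7.99 CPM and 10.1, 11.1 and 10.6 CPM (0.54 ± 0.24, adjusted p = 0.85).

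NOTCH targets had 11 tested, none called and a median of -0.20, which was -0.11 without 12 h library 1 and 0.05 without 18 h library 3. Notch1, the receptor most often mutated in T cell leukaemia, was at 120, 113 and 109 CPM at 12 h and 85.8, 92.5 and 92.2 CPM at 18 h, with no overlap (-0.34 ± 0.11, adjusted p = 0.636). The log2 fold change of Dtx1 ran from -0.46 to -0.19 over 12 alternatives. T cell receptor signalling genes, which lie upstream of Egr1 and Nr4a1 in T cells, had 28 tested, none called and a median of 0.08 (0.13 without 12 h library 1). Of these, 19 were positive and 9 negative, and 1 was lower and none higher at an unadjusted p under 0.05 (2.86% of all genes lower). Over 12 alternatives the log2 fold change ran from -0.83 to -0.52 for Grap2 and from 0.29 to 0.73 for Malt1. Genes known to answer to tamoxifen, oestrogen or aryl hydrocarbon ligands had 6 tested, none called and a median of 0.30 (0.16 without 18 h library 2 and 0.46 without 18 h library 3), with Tiparp at 30.1, 24.8 and 37.9 CPM at 12 h and 41.5, 55.7 and 34.6 CPM at 18 h and Ahrr at 0.58, 0.46 and 0.20 CPM and 0.63, 2.96 and 0.70 CPM. In both genes 18 h library 2 was highest. The groups overlapped for Tiparp and not for Ahrr. The levels of Ahrr at 12 h and in 18 h libraries 1 and 3 were near that of 3 counts. Its log2 fold change was 1.57, and 0.59 without 18 h library 2.

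**Figure D5:**
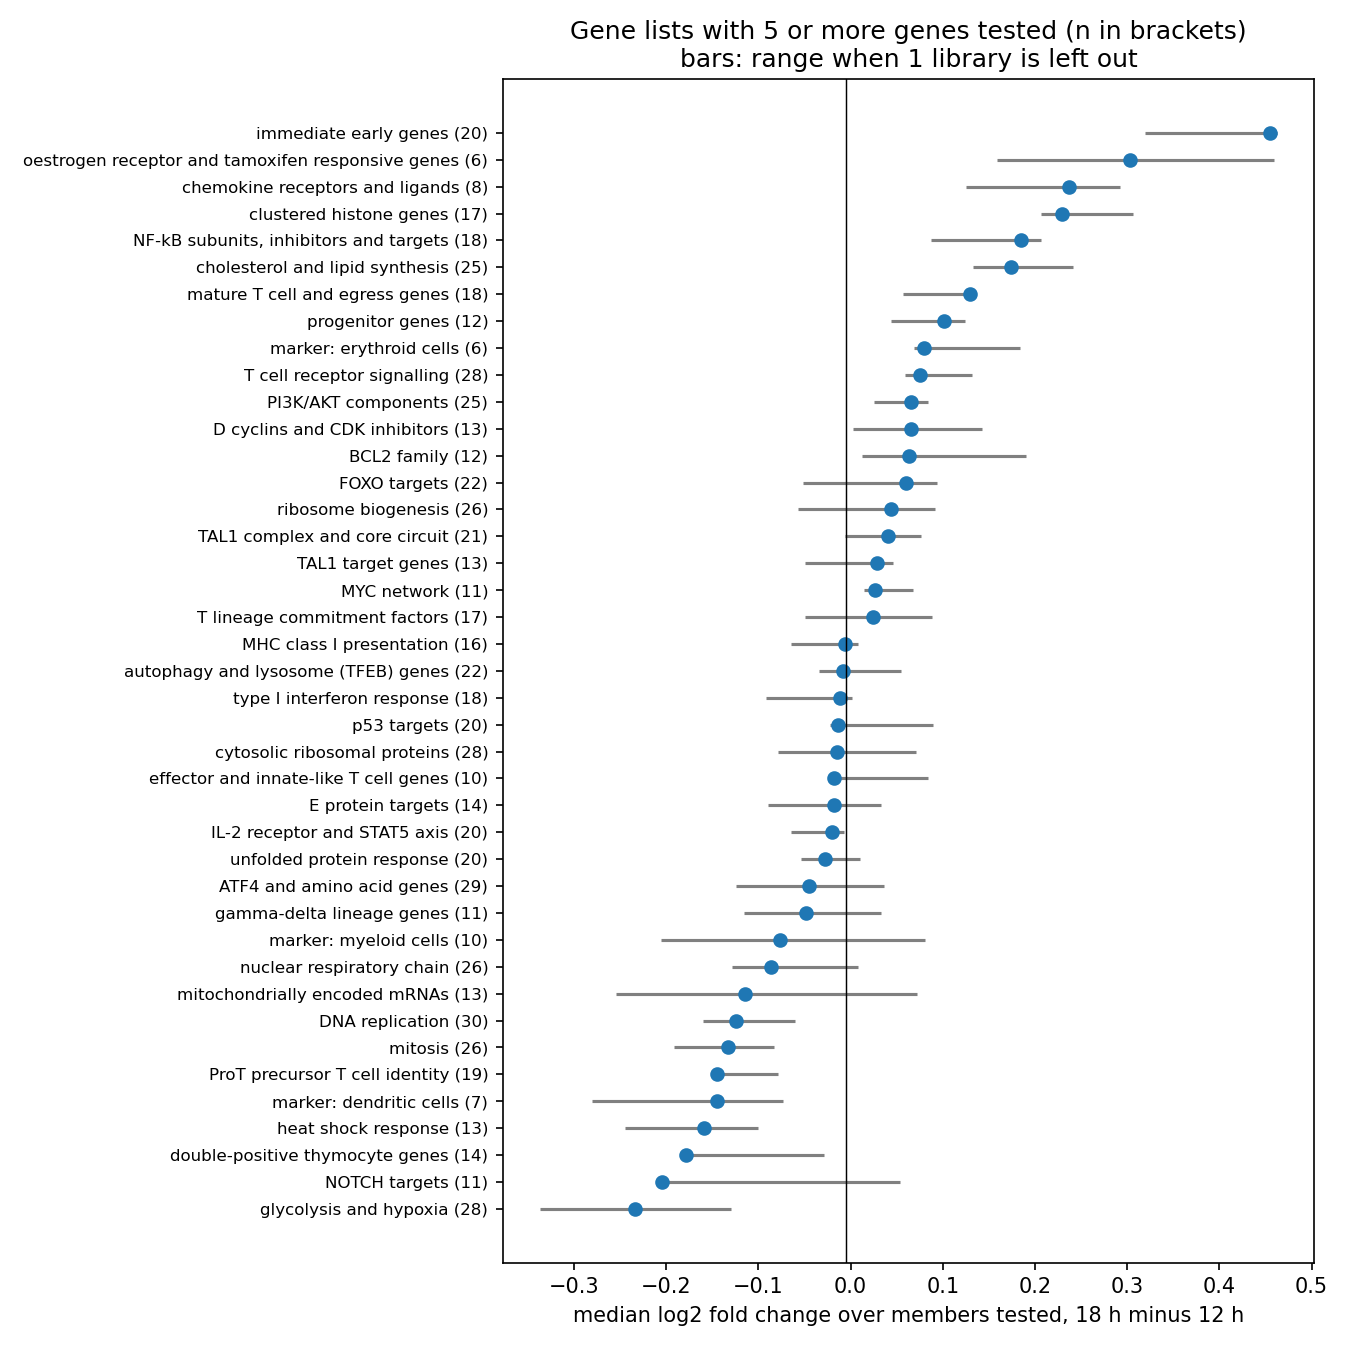
Median log2 fold change, 18 h minus 12 h, of each gene list with 5 or more genes tested (number in brackets); grey bars are the range of the median when 1 of the 6 libraries is left out, and the vertical line is the median of all genes. Immediate early genes have the highest median (0.46) and glycolysis and hypoxia genes the lowest (-0.23); bars of several lists between them cross the line.

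The label of the cells was checked against their markers. Of 23 genes of precursor T cell identity, 19 could be tested and none passed. The log2 fold change was negative in 13 of them and positive in 6, with a median of -0.14. That median ran from -0.15 to -0.08 when 1 of the 6 libraries was left out. At an unadjusted p under 0.05, 3 were lower and 1 higher (2.86% and 2.8% of all genes). Summed, they were at 2676 to 2971 CPM at 12 h and 2461 to 2657 CPM at 18 h, without overlap. Il2ra, the CD25 chain that marks immature thymocytes, was at 1140, 965 and 976 CPM at 12 h and 968, 786 and 877 CPM at 18 h, and Kit, Bcl11b, Tcf7, Lck and Gata3 were all at 73.6 CPM or more in every library. Ptcra, the invariant chain of the pre-T cell receptor, had at most 13 counts in a library, and Cd2, Cd4 and Cd8a at most 2, so several usual thymocyte markers were at or near 0. Of 76 markers that belong to stromal, dendritic, erythroid, B, myeloid, megakaryocyte or mast cells, 33 were tested and none passed, and 12 had no count in any of the 6 libraries, Pax5, Ms4a1, Ppbp, Fcer1a, Dcn and Col3a1 among them. Summed CPM of these lists at 12 h and 18 h was 15.9 to 19.1 and 15.04 to 19.3 for B cells, 81.2 to 110 and 90.4 to 98.3 for myeloid cells, 41.8 to 61.1 and 45.1 to 51.5 for dendritic cells, 494 to 600 and 572 to 605 for erythroid cells, and 436 to 458 and 415 to 469 for stromal cells. The list of megakaryocytes and mast cells was at 475 to 476 and 515 to 560 CPM, without overlap, most of it from Cpa3; its part in the results was not tested.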

How the data were processed

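The deposited table gave raw counts for each gene and library, as whole numbers. FastQC, HISAT2, SAMtools and HTSeq, with the builds mm10 and GRCm38, are named per the submitters' processing notes. For versions, annotation and strand setting the entry is "not given in the sources used here", and genes that overlap on either strand may share or lose reads. The table held 46078 genes, and its 5 summary lines (no feature, ambiguous and the like) entered neither library sizes nor tests; 27 symbols turned into dates were restored from identifiers. Of 46078 genes, 23333 had no count in the 6 libraries.

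All 15 ProT libraries were fitted together in edgeR 4.0.16 (R 4.3.3) with time as the only factor, TMM normalisation, filterByExpr (13610 genes kept), the quasi-likelihood F test and Benjamini-Hochberg adjustment over all genes, threshold 0.05. Levels are TMM-scaled CPM computed from the counts. SE was obtained as the size of the log2 fold change over the root of the F statistic. Intervals cover 95%. The biological coefficient of variation was 11.6% and the median SE 0.18. The script was tested on simulated counts. Positions come from GENCODE M21 (45143 genes matched by identifier), promoter windows from RefSeq on GRCm38.p6.

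Named genes were Tal1; called genes with a symbol, a mean of at least 5 CPM and no overlap between groups, at most 10 a direction, filled to 5 by smallest p as values only; called list members, or the 2 members with smallest p; and the 5 genes with smallest p each way against the mean of 12 h and 24 h, of which 1 is not reported here. Other genes named were chosen after their values were seen. The 45 gene lists (782 genes, 648 tested) and the comparison were chosen with earlier results of these data known. Lists are described by counts and medians without a test. Alternatives were DESeq2 1.42.0, RLE scaling, total library size, no filter, a replicate block, the 6 libraries alone, and each library left out.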

Additional observations from a re-analysis of the deposited data

How the results depend on the processing

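For 18 h against 12 h, the 7 calls were 7 with RLE scaling, 7 with DESeq2, 5 with total library size (Cirbp and Crebrf lost), 6 with the 6 libraries alone (Crebrf lost) and 27 (22 higher, 5 lower) with no filter on low counts. They ranged from 6 to 14 when 1 library was left out, with 14 reached without 12 h library 1; all calls in these leave-one-out fits were higher. Egr1, Zfp36, Junb, Ier2 and Dusp2 passed in all 12 alternatives. Without a filter, Ppme1 (adjusted p = 0.0139) and Ccrn4l (adjusted p = 0.0182) were among the genes that passed as lower. In that setting the glycolysis and hypoxia list and the FOXO target list each had 1 member called lower. The cholesterol, histone and chemokine lists each had 1 called higher, and a gene can be in more than 1 list. The 5 called list members became 9 with no filter, and 5 to 7 with 1 library left out. The 14 genes apart at 18 h from the mean of 12 h and 24 h became 30 with no filter and 8 with total library size, and 5 to 26 with 1 library left out. The 1917 genes of 24 h against 6 h became 827 to 3278 with 1 library left out. The cause of these moves was not tested. The log2 fold change of Tal1 ran from 0.00 to 0.17 over its 12 alternatives and passed in none. The median of all genes moved by at most 0.05 under any scaling (-0.05 with total library size), and the medians of the TAL1 complex, TAL1 target and NOTCH lists changed sign in some alternatives, while those of the immediate early, glycolysis and hypoxia, mitosis, DNA replication, histone, cholesterol and heat shock lists did not. Libraries with the same replicate number did not deviate together (correlations 0.02, -0.01 and -0.02), so the numbers were not taken to pair them; with a replicate block there were 9 calls (Gp49a and Hist1h1e gained), 17 genes apart from the mean of 12 h and 24 h, 2010 for 24 h against 6 h, and 6 list members. With 4037467 to 6599146 counts in a library, genes of a few CPM limit the comparison, as Fos and Egr2 show.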
